A study of Mus musculus with 31 samples.

Results

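The genes described here encode the core of the presynaptic release machinery, the proteins that hold synaptic vesicles, fuse them with the plasma membrane and time their fusion to calcium entry. The 10 genes were listed by name, Syn1, Syn2, Snap25, Syt1, Stx1a, Vamp2, Cplx1, Cplx2, Rab3a and Syp, out of 19898 genes that the array's RefSeq accessions named, and each was read on its brightest probe. Together they had 14 probes, 4 for Cplx2, 2 for Syn2 and 1 for each of the others, and all 10 genes were bright enough to be tested in every group.

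The arrays were 2-colour oligonucleotide microarrays of forebrain hemispheres of NMRI mice treated on day 5 after birth, an age used as a model of the preterm human brain. The study asked how a single injection of magnesium sulfate (MgSO4), given to protect the preterm brain, acted on transcription alone and before hypoxia-ischemia (HI). In the methods every RNA sample is a pool of 6 hemispheres, from the side of injury in injured mice and called ipsilateral also in uninjured ones. A supplementary note of the study gives fewer hemispheres per replicate. The labels call the 31 arrays biological replicates. Differences between pools, not between mice, therefore set the error.

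Experiment 1 set mice injected with MgSO4 at 600 mg/kg, with no injury (Mg), in the red channel (Cy5) against uninjured controls in the green channel (Cy3), at 3 h (n = 4), 6 h (n = 7), 12 h (n = 4) and 24 h (n = 4). The labels give the controls as injected with phosphate-buffered saline and the route as under the skin, whereas the methods describe an injection into the abdomen and controls without treatment. Experiment 3 set mice with HI, made by permanent ligature of the right carotid followed by breathing low oxygen, in Cy5 against uninjured controls in Cy3, at 3 h and 12 h (n = 3 each). The titles of these arrays carry the tag PBS (phosphate-buffered saline) and call the controls naive, while the methods describe no injection in the HI group. One label field gives MgSO4 for these HI mice, against the titles and the methods. The titles and the methods were followed here on this point, and no MgSO4 is assumed in these mice. Experiment 2 put mice that received MgSO4 before HI (MgHI) on the arrays at 3 h and 12 h (n = 3 each). Its titles and channel labels name MgSO4-treated uninjured mice as the Cy3 sample, while the methods name injured mice without MgSO4. Its ratios are accordingly given below as Cy5 over Cy3, with no treatment assigned to the difference.

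A few measurements of the whole series bear on these ratios. Fos, an immediate early gene induced by injury, had a mean log2 ratio of HI over control of 5.52 ± 0.37 (SD, n = 3) at 3 h and 2.69 ± 1.00 (SD, n = 3) at 12 h. Of 15 immediate early genes tested, 10 were called higher in Cy3 of MgHI at 3 h than in control Cy3 of HI at 3 h. The median difference was 2.26 on the log2 scale, which goes against an uninjured Cy3 sample at 3 h of Experiment 2. At 12 h 0 of 14 were called, with a median difference of 0.24. HI over control at 12 h also had 0 of 14 called (median 0.38), so this list could not settle the Cy3 sample at 12 h. The correlation of log2 ratios between arrays of a group ranged from 0.24 to 0.68 in the injury groups, and in Experiment 1 it reached below 0 at every time. It spanned -0.11 to 0.38 in the 3 h group, -0.15 to 0.58 in the 12 h group, -0.15 to 0.24 in the 24 h group and, farthest below 0, -0.42 to 0.86 in the 6 h group. At 6 h, replicate arrays of 1 dye orientation ran against each other. Thus it cannot be said which way the 6 h ratios point, and counts there are also given with the sign turned. Turning the sign of every array together leaves the disagreement between arrays in place, so those counts do not resolve it. The 12 markers of neurons that are not synaptic genes, such as Rbfox3, Tubb3 and Map2, were all bright enough to be tested in every group. In bulk tissue, fewer neurons and less RNA per neuron cannot be told apart.

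A synaptic vesicle fuses when Vamp2 on the vesicle zips together with Stx1a and Snap25 on the plasma membrane into a SNARE complex. Syt1 senses the calcium that enters with an action potential, and the complexins hold the partly zipped complex until that signal. Synapsins tether vesicles in the reserve pool, Rab3a directs vesicles to the membrane and Syp is an abundant vesicle membrane protein. In the first weeks after birth the mouse forebrain is forming most of its synapses, and these genes are read as signs of presynaptic maturation.

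RefSeq promoter entries (build GRCm38.p6) were held for 8 of the 10 genes, all but Snap25 and Vamp2. The 250 bases upstream of the start of Stx1a and Syn1 are shown, Stx1a because it was the only gene of the 10 called in any group and Syn1 because its promoter held sites of factors known from neuronal promoters. Stx1a lies at chr5:135023232-135023481 on the forward strand and Syn1 at chrX:20920919-20921168 on the reverse strand. Capitals mark TTCAGCACC, the left part of the RE1 element bound by the neuronal repressor REST, at position -232 from the start of Syn1, and TGACGTCA, the cAMP response element, at position -159.
Stx1a: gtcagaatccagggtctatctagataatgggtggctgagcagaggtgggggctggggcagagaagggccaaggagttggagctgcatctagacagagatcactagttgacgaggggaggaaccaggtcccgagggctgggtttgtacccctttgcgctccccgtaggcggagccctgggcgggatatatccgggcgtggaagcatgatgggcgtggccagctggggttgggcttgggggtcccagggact
Syn1: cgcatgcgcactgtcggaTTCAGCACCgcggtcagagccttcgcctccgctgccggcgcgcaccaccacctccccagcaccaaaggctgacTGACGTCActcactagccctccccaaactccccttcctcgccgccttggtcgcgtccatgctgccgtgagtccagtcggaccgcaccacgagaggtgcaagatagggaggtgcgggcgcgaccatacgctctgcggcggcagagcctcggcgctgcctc
Both strands were searched for those motifs and for GGACAG, the core of the right part of RE1, GGGGCGGGG, a GC box, and GCGGGGGCG, an EGR box. None of the 5 was found in the Stx1a window. TTCAGCACC was found in 0.301% of 32851 mouse promoter entries of the same length and TGACGTCA, which reads the same on both strands, in 1.55%. Among the other genes with an entry, GCGGGGGCG stood in Syn2, GGACAG in Syt1 and GGGGCGGGG in Rab3a and Syp, against shares of 2.57%, 18.7% and 10.4% of all entries. These are matches of letters and carry no measurement of binding.

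**Figure D1:**
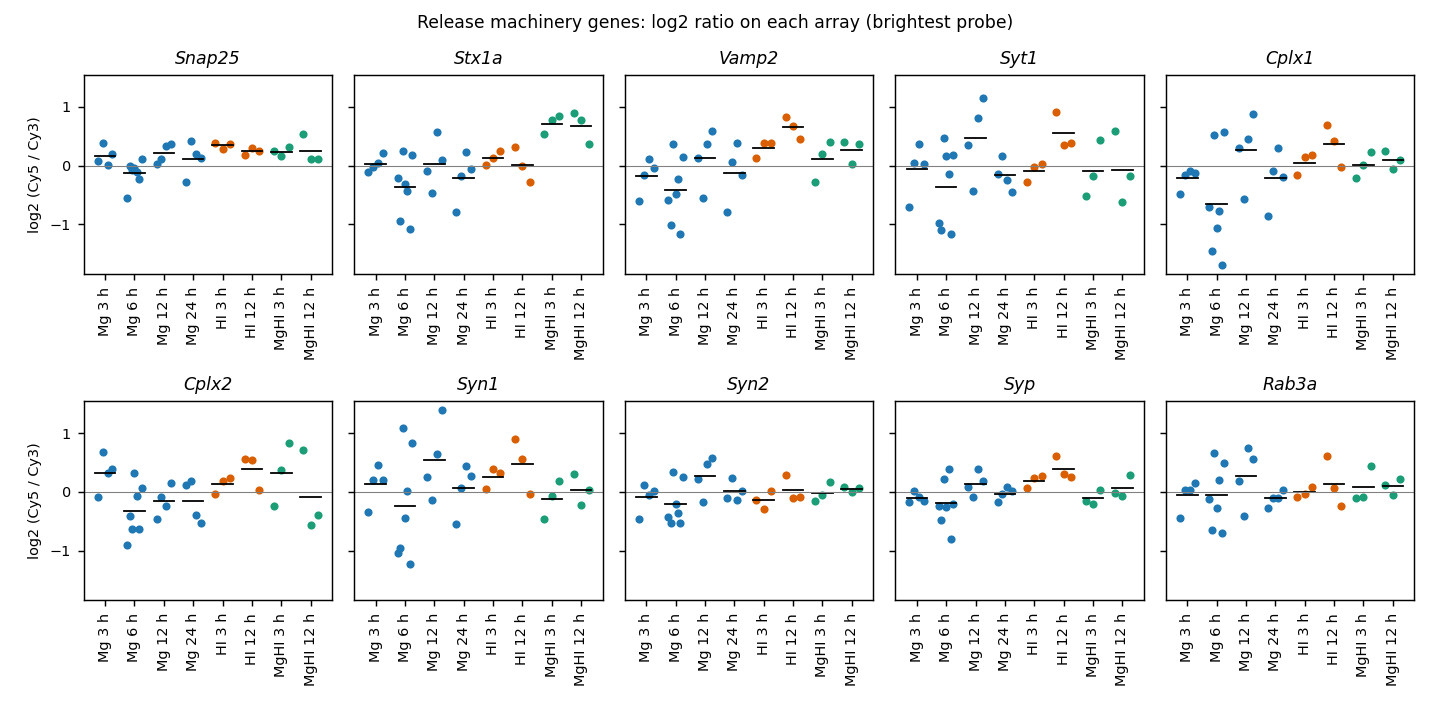
Each panel plots 1 gene, with the log2 ratio of Cy5 over Cy3 on the vertical axis and the 8 groups on the horizontal axis. Points are single arrays and bars are group means. The points at Mg 6 h, the group with the most arrays (n = 7), span the widest range in 8 of the 10 panels. Stx1a stands above 0 on all 6 arrays of Experiment 2.

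Stx1a, the plasma membrane syntaxin of the SNARE complex, was the 1 gene of the 10 called in any group, and the call was made at 3 h of Experiment 2. At 3 h its log2 ratio of Cy5 over Cy3 was 0.54, 0.77 and 0.84 on the 3 arrays, a mean of 0.72 ± 0.16 (SD, n = 3), or 1.64-fold higher in Cy5 (95% interval 0.45 to 0.98, limma with Benjamini-Hochberg adjustment, adjusted p = 0.0171). Genes were called at an adjusted p under 0.05 and at least a 1.5-fold difference. By that rule 1 of the 10 genes was called, against 5.47% of the 14708 genes tested (4.01% higher in Cy5). At 12 h the values were 0.90, 0.78 and 0.37, again all above 0, with a mean of 0.68 ± 0.28 (95% interval 0.34 to 1.03), but the adjusted p was 0.0835 by the same test and Stx1a was not called. No gene at all was called at 12 h in Experiment 2 (0% of 14802). Stx1a was the 1 gene of 10 with an unadjusted p under 0.05 and a higher level in Cy5 at that time, against 13.8% of all genes. Between 3 h and 12 h the ratio of Stx1a differed by -0.03 (95% interval -0.44 to 0.37), and none of the 10 genes was called for that change, against 0% of 14498.

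In HI without MgSO4 the same gene stayed near 0. Its log2 ratio of HI over control was 0.01, 0.12 and 0.25 at 3 h and 0.32, -0.01 and -0.29 at 12 h. The controls and channels of these experiments differ, and no difference between the ratios of the experiments was tested. The call at 3 h depended on the array set and on the test. It was lost without replicate 2 (limma adjusted p = 0.0535), with no filter on dim probes (limma adjusted p = 0.0526) and with the test of the study's methods after Benjamini-Hochberg adjustment, and it held in 10 of 13 alternative settings, with mean log2 ratios between 0.65 and 0.81.

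The signal of each channel was then read alone, as log2 signal minus the array's 75th percentile. At 3 h the Cy3 level of Stx1a was 1.25, 0.99 and 1.03 on the MgHI arrays and 1.77, 1.26 and 1.60 on the HI arrays, where Cy3 held controls. The lowest control value was thus just above the highest MgHI value. The Cy5 levels overlapped, at 1.79, 1.75 and 1.84 on the MgHI arrays and 1.78, 1.40 and 1.86 on the HI arrays. The Cy3 difference was -0.46 (95% interval -0.84 to -0.07, limma with Benjamini-Hochberg adjustment, adjusted p = 0.323) and was not called. It was -0.40 within slide 7 and -0.57 within slide 8. At 12 h it was -0.47 (adjusted p = 0.389 by the same test), with Cy3 levels of 1.24, 0.77 and 1.34 on the MgHI arrays against 1.39, 1.71 and 1.68 on the HI arrays.

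Rab3a, Syn2 and Syp also had lower Cy3 levels on all MgHI arrays than on all HI arrays at 3 h, which with Stx1a made 4 of the 10 genes not overlapping in that direction, against 10.9% of the 14411 genes tested. The difference was -0.33 for Rab3a, -0.22 for Syn2 and -0.24 for Syp, and none was called (0 of 10 genes, against 0.326% of all). The other, dimmer probe of Syn2 gave a Cy3 difference of 0.01 at 3 h and 0.27 at 12 h. Its brightest probe gave -0.22 and -0.32. The count of 4 genes at 3 h thus includes Syn2 on its brightest probe alone. At 12 h, Stx1a alone did not overlap (1 of 10, against 12.0% of 14399 lower). Taking Cy5 of the MgHI arrays in place of Cy3, which adds the difference between the dyes, turned the Stx1a difference to 0.25 at 3 h and 0.19 at 12 h.

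**Figure D2:**
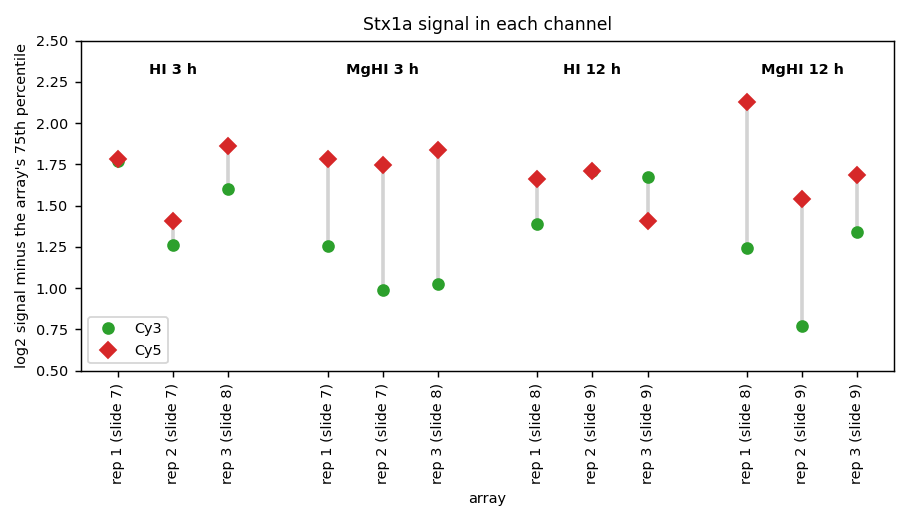
The Stx1a signal in each channel is plotted on a log2 scale, minus each array's 75th percentile, for the 12 arrays of the injury experiments, with Cy3 as green circles and Cy5 as red diamonds joined by a grey line per array. On all 6 MgHI arrays the red point lies above the green one, and the green points lie lower than the control green points of HI at the same time.

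Snap25 and Vamp2, the partners of Stx1a in the SNARE complex, had the highest mean ratios of the 10 genes at 3 h of HI. Snap25, which supplies a pair of the helices of the complex, had log2 ratios of HI over control of 0.38, 0.29 and 0.37 at 3 h and 0.19, 0.30 and 0.25 at 12 h, above 0 on all 6 arrays and with a narrow spread. At 3 h the mean was 0.35 ± 0.05 (SD, n = 3; limma with Benjamini-Hochberg adjustment, adjusted p = 0.0344), but the difference was 1.27-fold and below the 1.5-fold rule, so it was not called. Vamp2 had values of 0.14, 0.38 and 0.38 at 3 h and 0.84, 0.67 and 0.45 at 12 h. Its 12 h values all exceeded its 3 h values.

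For Vamp2 the mean at 12 h was 0.65 ± 0.20 (SD, n = 3), or 1.57-fold (95% interval 0.32 to 0.98), with an adjusted p of 0.0803 by limma, and it was not called. The counts over the 10 genes were 0 called at 3 h, against 3.81% of 14541 genes, and 0 called at 12 h, against 0.0137% of 14586. At 3 h, 4 of the 10, Snap25, Vamp2, Syn1 and Syp, had an unadjusted p under 0.05 with a higher level in HI, where 15.4% of all genes did so. At 12 h 3 of them did, Vamp2, Syt1 and Syp, against 14.0%. A ratio above 0 on all 3 arrays was seen in 5 genes at 3 h, Snap25, Stx1a, Vamp2, Syn1 and Syp, against 25.1% of all, and in 5 at 12 h, Snap25, Vamp2, Syt1, Cplx2 and Syp, against 24.9%. In Experiment 2 the log2 ratios of Vamp2 were between -0.28 and 0.40 and those of Snap25 between 0.11 and 0.54, the latter above 0 on all 6 arrays. Of all genes in Experiment 2, 22.6% were above 0 on every array at 3 h and 26.3% at 12 h.

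Syt1, the calcium sensor of fast release, had values of -0.28, -0.02 and 0.04 at 3 h of HI and 0.92, 0.36 and 0.38 at 12 h. The groups did not overlap. The mean at 12 h was 0.55 ± 0.32 (SD, n = 3; limma adjusted p = 0.114), and the change from 3 h to 12 h was 0.64 (95% interval 0.20 to 1.08, limma with Benjamini-Hochberg adjustment, adjusted p = 0.176), the largest of the 10 genes. Syt1 and Vamp2 were the 2 genes of 10 that did not overlap and were higher at 12 h, against 13.7% of 14301 genes. None of the 10 was called for this change, against 0.0420% of all.

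At 12 h of HI all 10 genes had a mean above 0, with a median of 0.37, beside 0.00 over all genes tested. The arrays differed in this. The median of the 10 genes was 0.61 on replicate 1, 0.33 on replicate 2 and 0.01 on replicate 3, with 10, 8 and 5 genes above 0. The share of probes well above background in Cy5, minus that in Cy3, was 5.17 and 2.99 percentage points on replicates 1 and 2 and -4.08 on replicate 3. The neuron list followed the same order, at 0.34, 0.10 and -0.13. Other cell type lists were also above 0 at 12 h of HI. The choroid plexus list had a median of 0.77 with 6 of 7 genes above 0, the blood list 0.32 with 6 of 6, and the oligodendrocyte lineage list 0.30 with 8 of 10. The part of these in the ratios of the release genes was not tested. Without replicate 3, Vamp2 (0.75), Syt1 (0.64) and Syn1 (0.73) were called, 3 of 10 genes against 18.3% of all genes under the same setting.

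**Figure D3:**
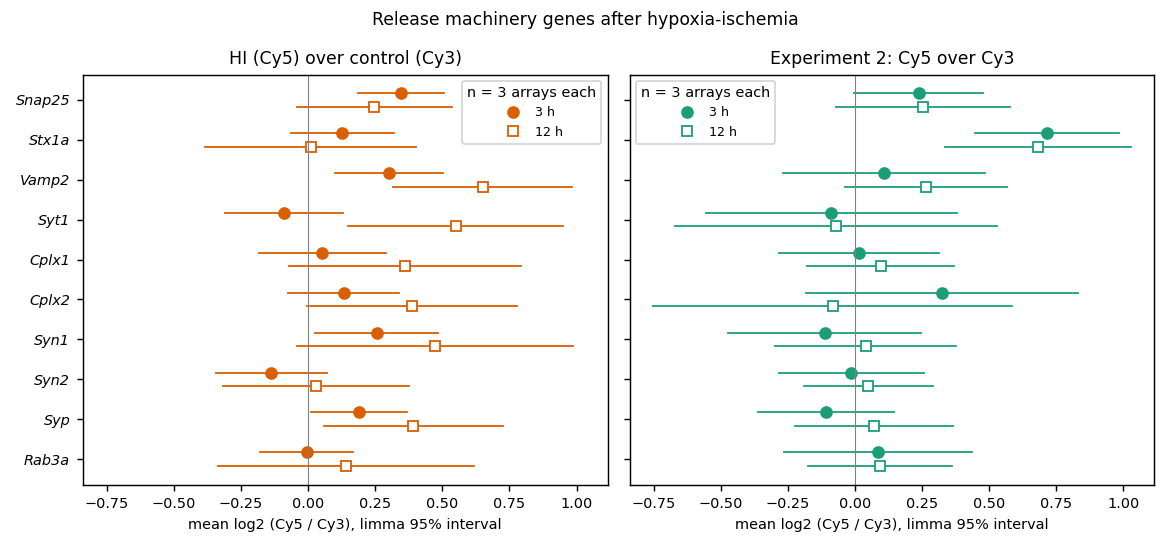
Mean log2 ratios of the 10 genes are plotted with their 95% limma intervals, on the left for HI over control and on the right for Cy5 over Cy3 of Experiment 2, at 3 h (filled circles) and 12 h (open squares), n = 3 arrays each. Vamp2 and Syt1 at 12 h lie farthest to the right on the left side, at 0.65 and 0.55, and Stx1a at 0.72 and 0.68 on the right side.

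The complexins, synapsins, Syp and Rab3a had no call after injury. Cplx1, one of the complexins that clamp the SNARE complex, had HI values of -0.17, 0.15 and 0.18 at 3 h and 0.69, 0.42 and -0.03 at 12 h. Syn1, the X-linked synapsin, had HI values of 0.05, 0.40 and 0.32 at 3 h and 0.91, 0.55 and -0.04 at 12 h. At 12 h both were high on replicate 1 and near 0 on replicate 3. Syn2, the related synapsin, lay between -0.28 and 0.29 in HI, and between -0.15 and 0.17 in Experiment 2. The second, dimmer probe of Syn2 was above 0 on every array of these groups and was not called. Its means at 3 h and 12 h were 0.25 and 0.59 in HI, and 0.30 and 0.40 in Experiment 2. Syp, the vesicle membrane protein often used to mark terminals, was above 0 on all 6 HI arrays (0.07 to 0.62), and Rab3a, the vesicle GTPase, lay on both sides of 0 (-0.24 to 0.60).

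Cplx2, the other complexin, was the widest of the 10 genes in Experiment 2. Its log2 ratios of Cy5 over Cy3 were -0.24, 0.38 and 0.83 at 3 h and 0.71, -0.56 and -0.40 at 12 h. No order of times can be read from these values. Without replicate 1 it was called at 3 h (0.60, limma with Benjamini-Hochberg adjustment, adjusted p = 0.00455), so that 2 of 10 genes were called against 9.25% of all genes under that setting.

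After MgSO4 alone, no gene of the 10 was called at any time. The background of calls was small, at 0% of 14382 genes at 3 h, 0.0365% of 13709 at 6 h, 0% of 13849 at 12 h and 0.00714% of 13999 at 24 h. Of the 10 genes, Cplx2 at 3 h (0.33 ± 0.31, SD, n = 4) was the 1 with an unadjusted p under 0.05 and a higher ratio, against 4.29% of all. None of the 10 had an unadjusted p under 0.05 at 12 h, against 15.9% of all genes in either direction, or at 24 h, against 11.3%. Snap25 was above 0 on all 4 arrays at 3 h (0.01 to 0.38), where 7.16% of all genes were. It was also above 0 on all 4 at 12 h (0.03 to 0.37), against 14.3% of all genes. Cplx1 was below 0 on all 4 at 3 h (-0.48 to -0.09), against 12.2% of all genes.

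For most of the 10 genes the ratios spanned the widest range at 6 h, the group with the most arrays (n = 7). As deposited, all 10 genes had a mean below 0 (with the sign turned, above 0), and the median of the 10 was -0.28 beside 0.00 over all genes tested. The single arrays did not share this direction. The median of the 10 genes was -0.57, -0.79, 0.35, -0.27, -0.13, -0.94 and 0.18 on replicates 1 to 7. All 10 genes were below 0 on replicates 1, 2 and 6, and 8 and 9 of them were above 0 on replicates 3 and 7.

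Cplx1 had the lowest mean of the 10 genes at 6 h (the highest with the sign turned), with a lowest value of -1.69, a median of -0.77 and a highest value of 0.57, and a mean of -0.65 ± 0.89 (SD, n = 7; 95% interval -1.30 to -0.01, limma with Benjamini-Hochberg adjustment, adjusted p = 0.373). It was the 1 gene of 10 with an unadjusted p under 0.05 and a lower ratio, against 5.94% of all genes (with the sign turned, a higher ratio). Syn1 ranged from -1.22 to 1.09 around a median of -0.44, and Syt1 from -1.17 to 0.47 around -0.15. Vamp2 ranged from -1.16 to 0.36 around -0.48, and Stx1a from -1.08 to 0.25 around -0.32. Snap25 moved least, from -0.55 to 0.11 around -0.07. The array order was alike in most of the genes, since replicate 6 held the lowest value of 8 of the 10 genes and replicate 3 or 7 the highest of 8.

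The arrays at both ends shared slides, and other measurements are given beside them. Replicates 2 and 6, with the lowest medians, lay on slide 3, and replicates 3 and 7, with the highest, on slide 4. The share of probes well above background in Cy5 minus that in Cy3 was -4.03 and -5.02 percentage points on replicates 2 and 6, and 6.04 and 11.4 on replicates 3 and 7. The other arrays did not keep this order, since replicate 4 had -8.04 points with a median of -0.27, and replicate 1 had -0.34 points with a median of -0.57. The list of neuron markers had medians of -0.55 and -0.56 on the first pair and 0.36 and 0.22 on the second, and the list of the oligodendrocyte lineage had -0.72 and -0.71 against 0.27 and -0.01. Microglial markers stayed between -0.11 and 0.23 over the 7 arrays. With slide as a random block at 6 h, the estimated correlation between arrays of a slide was 0.62. The 6 h intervals and p values given here come from fits without that block, which count the 7 arrays as independent. Beyond that, the part of slide, detection and cell makeup in the 6 h ratios was not tested.

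Of the 7 arrays, replicates 1, 2 and 6 were taken as those whose mean ratios match the fold changes in the study's gene list. How closely they or other sets of 3 match is not given here. In those 3 alone, 6 of the 10 genes were called lower, Cplx1 (-1.28), Syt1 (-1.08), Syn1 (-1.07), Vamp2 (-0.92), Stx1a (-0.74) and Cplx2 (-0.65), against 14.3% of 14337 genes called in either direction. Those arrays were identified by their values, so the count is a description and not independent evidence of a direction. With the sign turned the same genes would be higher.

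**Figure D4:**
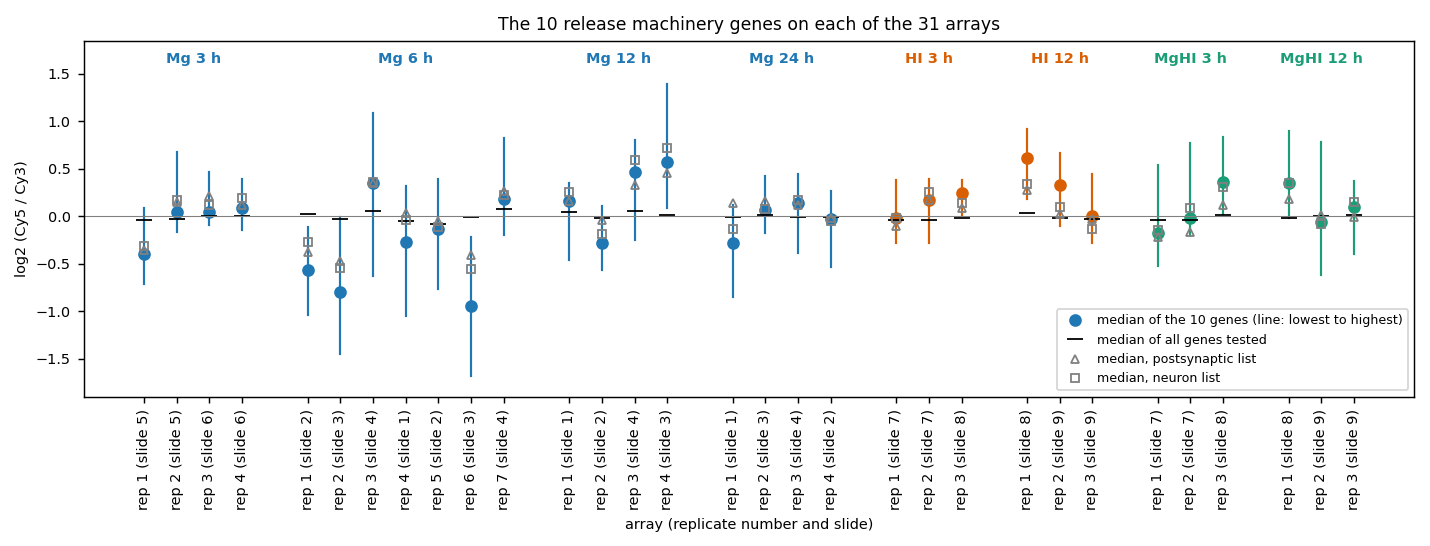
The median log2 ratio of the 10 genes on each of the 31 arrays is plotted as a coloured point, with a line from the lowest to the highest gene, beside the median of all genes tested (black dash), of the postsynaptic list (triangle) and of the neuron list (square). At Mg 6 h the medians run from -0.94 on replicate 6 to 0.35 on replicate 3, while the median of all genes stays near 0, and the neuron list runs in the same order at both ends.

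At 12 h after MgSO4, 9 of the 10 genes had a mean above 0 and their median was 0.24 beside 0.02 for all genes. By array the median was 0.16, -0.28, 0.46 and 0.57, so replicate 2 lay on the other side of 0. Syn1 had the highest mean (values 0.25, -0.14, 0.64 and 1.40, mean 0.54 ± 0.66, SD, n = 4; limma adjusted p = 0.332), followed by Syt1 (0.35, -0.43, 0.81 and 1.16, mean 0.47 ± 0.68; limma adjusted p = 0.370). The neuron list again had the same array order, at 0.26, -0.19, 0.59 and 0.72. At 24 h the median of the 10 genes was -0.12, and by array it was -0.28, 0.07, 0.14 and -0.03.

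Between 6 h and 12 h all 10 genes had a higher mean at 12 h as deposited, with a median difference of 0.44. With the sign of the 6 h values turned, 5 of the 10 were higher at 12 h and the median difference was 0.01, from -0.48 for Cplx2 to 0.29 for Syn1. Cplx1 (0.92), Syt1 (0.84), Syn2 (0.48) and Snap25 (0.34) had an unadjusted p under 0.05 as deposited, 4 of 10 genes against 8.60% of 13566 genes higher at 12 h, and this count was not made with the sign turned. By limma with Benjamini-Hochberg adjustment each had an adjusted p of 0.352, and 0 of 10 were called, against 0.00737% of all. Within slides, and as deposited, the median difference of the 10 genes was 0.39, 0.15, 1.17 and 0.17 on slides 1 to 4. Between 3 h and 6 h the median difference was -0.30 as deposited and 0.30 with the sign turned, and between 12 h and 24 h it was -0.27, with 0 of 10 genes called in each, against 0% of all genes.

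Cplx2 was the gene for which the choice of probe mattered most. Of its other probes, A_55_P2148402 stayed closest to the brightest one, with mean differences (brightest minus other) between -0.07 and 0.17 in the 8 groups. Probe A_55_P1962603 differed from the brightest by -0.36 ± 0.48 at 6 h (SD, n = 7), where it gave -1.18 against 0.08 on replicate 7, by 0.37 ± 0.16 at 24 h (n = 4) and by -0.37 ± 0.17 at 12 h of Experiment 2 (n = 3). At 6 h the brightest probe gave -0.63 and 0.08 on replicates 3 and 7, and A_51_P485161 gave 1.02 and 0.73 on the same arrays. At 12 h the brightest probe gave -0.46, -0.08, -0.25 and 0.16 and A_51_P485161 gave 0.52, -0.36, 0.97 and 1.26, a mean difference of 0.75 ± 0.69 (SD, n = 4). On A_51_P485161, as for Syn1, replicates 3 and 7 were high and replicates 2 and 6 low at 6 h, and replicates 3 and 4 high at 12 h. The second, dimmer probe of Syn2 was also higher than its brightest one at 12 h of HI, at 0.84, 0.71 and 0.20 against 0.29, -0.11 and -0.09. Whether these probes read different transcripts was not tested.

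**Figure D5:**
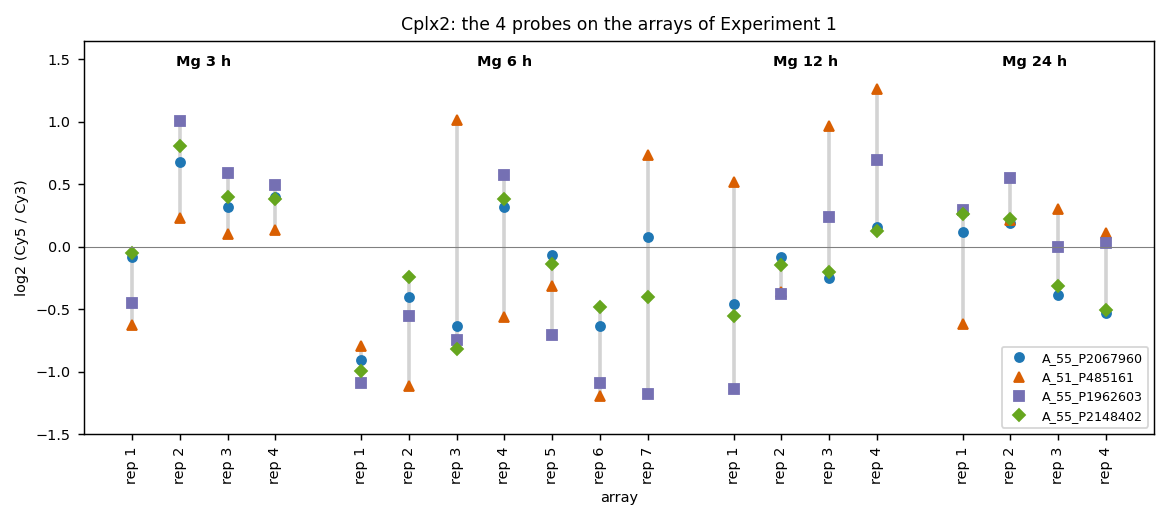
The log2 ratio of Cy5 over Cy3 is plotted for the 4 Cplx2 probes on each array of Experiment 1, with a grey line joining the probes of an array. Probe A_51_P485161 (orange triangles) lies at 1.02 on replicate 3 of Mg 6 h, where the brightest probe lies at -0.63, and at 0.52, 0.97 and 1.26 on replicates 1, 3 and 4 of Mg 12 h.

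The wider release pathway was followed in 157 other genes on the array, grouped by role. On the arrays of Experiment 2 at 3 h, 14 of the 147 tested were called (9.52%, against 5.47% of all genes), 13 higher in Cy5 and 1 lower. Vesicle membrane proteins made up 5 of the 13, Syngr3 (1.00), Sv2a (0.86), Syngr1 (0.86) and the proton pump subunits Atp6v0c (0.66) and Atp6v0d1 (0.64). The others included Syt17 (1.00), the vesicular zinc transporter Slc30a3 (0.93), the calcium channel subunits Cacnb2 (0.92) and Cacnb1 (0.62), the endocytic scaffold Itsn1 (0.69) and the SNARE proteins Stx7 (0.67) and Snap47 (0.67). Syt10 was lower in Cy5 (-0.82). Active zone scaffolds (0 of 18) and factors of SNARE assembly and priming (0 of 18) had no call. At 12 h none of 147 was called, and the widest differences of 1 sign were Sv2a (1.04), Syt10 (-1.04) and Cacnb2 (1.01), with adjusted p of 0.0829, 0.083 and 0.0829 by limma.

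After HI at 3 h, 3 of 146 were called (2.05%, against 3.81%). Itsn1 (0.61) and Sv2a (0.60), a vesicle glycoprotein, were higher in Cy5 (HI), and Stxbp5, the tomosyn that competes for syntaxin, was lower (-0.59). Without injury, Itsn1 was 0.63 at 3 h and Sv2a 0.82 at 12 h after MgSO4, neither called. Controls were always in Cy3 in Experiments 1 and 3. A dye effect at a probe therefore cannot be told apart from a response. At 12 h of HI none of 147 was called, and Syt15 (0.94), Sv2a (0.92) and the scaffold Bsn (0.91) had the widest differences of 1 sign. After MgSO4, Syt15, a synaptotagmin outside the group of calcium sensors that holds Syt1, was the only call, at 6 h (1.25 ± 0.23, SD, n = 7; limma adjusted p = 0.0108; 1 of 145, or 0.69%, against 0.0365%). It was higher in Cy5 on all 7 arrays, including those on which the 10 genes ran in opposite directions, and lower if the sign of the 6 h ratios is turned. Its mean was 1.15 at 12 h and 1.16 at 24 h, where it was not called.

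At the other times after MgSO4 no gene of the pathway was called. The widest differences of 1 sign on every array were Itsn1 (0.63), Rab27a (-0.63) and Synj2 (0.45) at 3 h, Sv2a (0.82) and Ston2 (0.90) beside Syt15 at 12 h, and Stx2 (-0.81) and Pclo (0.53) at 24 h. At 6 h, Syt9 (-0.50) and Rab3d (-0.42) were below 0 on all 7 arrays, again above 0 with the sign turned. Of all genes, 2.61% were below 0 on every array at 6 h.

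Postsynaptic scaffolds and glutamate receptors, the partners across the synapse, are given beside the release genes. At 6 h their median was -0.04 over 34 genes beside -0.28 for the release genes, and at 12 h of HI it was 0.12 over 35 genes beside 0.37. By array at 6 h, the postsynaptic medians were -0.37, -0.47, 0.35, 0.03, -0.05, -0.41 and 0.26, with the same arrays at the low and high ends. At 12 h after MgSO4 the medians were 0.21 and 0.24, and at 3 h of Experiment 2 they were -0.14 over 36 genes and 0.05. These lists share their arrays, and no difference between them was tested.

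Over the 31 arrays, the genes closest to the mean of the 10 were Gabbr1, a subunit of the GABA-B receptor, with a mean absolute difference of 0.081 on the log2 scale, Pfkm (0.086), Bin1 (0.088), Uba1 (0.090) and Mapre3 (0.097), out of 13207 genes with a median distance of 0.362. The 10 genes themselves lay from 0.156 (Rab3a) to 0.325 (Cplx2) from their own mean, and the closest pair was Syn2 and Rab3a, at 0.158. These distances describe likeness across arrays that share slides and controls, and they favour genes with a narrow spread.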

How the data were processed

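The authors hybridized labelled RNA to Agilent whole mouse genome arrays and ran Feature Extraction 10.5.1.1, which subtracted background and normalized the dyes by LOWESS. The deposited files hold the processed signal intensity of each channel per spot. The series table of log10 ratios, also made by the authors, was an alternative. Here log2 of Cy5 over Cy3 intensity was taken per probe, without control spots and spots marked as outliers, and a probe was kept where 66.7% or more of the arrays of a group had it well above background in 1 channel at least. Of 39429 probes, 26339 had 1 symbol through RefSeq accessions. Each group was fitted alone with limma 3.58.1 (R 4.3.3) against 0, with Benjamini-Hochberg adjustment over all probes, as were differences between groups. Single channels were centred on the array's 75th percentile. Spots well above background made up 45.2% to 69.7% of probes in Cy3 and 54.4% to 70.2% in Cy5, and none were saturated. The number of arrays limits the precision. Figures used matplotlib 3.10.9 (Python 3.11.15).

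All 10 genes are named. In the other release pathway genes, those called and the 3 with the widest difference of 1 sign on every array in each comparison are named, as are the 5 closest to the mean of the 10. A gene that this rule names is not reported here. The members and lists were chosen with earlier results of these data known. No outcome of a test of the fits on simulated data is given here. Same-numbered arrays deviated together in all 3 pairs only for Cy3 of MgHI and HI at 3 h (r = 0.18, 0.34 and 0.39), where they also share slides. The values given are from fits without the block.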

Additional observations from a re-analysis of the deposited data

How the results depend on the processing

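The median log2 ratio of the 10 genes moved by less than the spread between replicates in all 98 alternatives, but changed sign in 3 of them, each leaving out 1 array. It went from -0.06 to 0.08 without replicate 1 at Mg 3 h, from -0.12 to 0.01 without replicate 1 at Mg 24 h and from 0.05 to -0.10 without replicate 3 at MgHI 3 h. Of the recounts of genes called, 173 were unchanged and 13 moved. With replicates 1, 2 and 6 alone, 6 genes were called at Mg 6 h, and 1 (Cplx1, lower as deposited and higher with the sign turned) in 1 fit over all 8 groups, where 1.33% of all genes were called. At MgHI 3 h, 0 were called with no filter on dim probes (1.94% of all genes) and 0 (0% of all genes) with the methods' t-test after Benjamini-Hochberg adjustment, and leaving out each array gave 0 to 2. At HI 12 h, the methods' t-test at its unadjusted threshold called 1 (Vamp2), where 5.07% of all genes were called, and leaving out each array gave 0 to 3. At MgHI 12 h, 1 (Stx1a) was called with normexp and loess (1.71% of all genes), with loess and no background subtraction (2.02%) and in 1 fit over all 8 groups (3.55%), and leaving out each array gave 0 to 1. With Cy5 in place of Cy3 of MgHI at 3 h, 1 gene (Cplx2, 0.61) was called, against 10.6% of all.

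With the replicate number as a block, 0 of the 10 genes were called in each difference between groups, as without it, also for the Cy3 arrays at 3 h that deviated in pairs, where the adjusted p of Stx1a by limma was 0.131 with the block and 0.323 without it. Elsewhere the arrays share only a number. With slide as a block 0 were called as well. A random slide block could not be fitted within the groups of 3 arrays or at Mg 12 h and Mg 24 h. Signal limits the dimmer Syn2 probe, which was not well above background in Cy3 on replicate 7 of Mg 6 h.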
